A study of Mus musculus with 6 samples.

Results

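The genes described are 8 that handle short-chain fatty acids in the colon, taken by symbol from a deposited expression table of 19844 genes. They are the carriers Slc5a8 and Slc16a1, the carrier chaperone Bsg, the receptors Ffar2, Ffar3 and Hcar2, and the acyl-CoA synthetases Acss1 and Acss2. All 8 were found, and 6 of them passed the filter of at least 1 FPKM (fragments per kilobase of transcript, scaled to sequencing depth) in at least 3 libraries. Ffar3 and Hcar2 did not, and are given as values. Expression was measured by poly-A RNA sequencing of distal colon from 6 C57BL6 mice on day 17 of treatment with azoxymethane, a carcinogen, and dextran sulfate sodium, which injures the colon lining. All 6 mice received both agents. There were 3 wild-type mice and 3 mice labelled ChREBP knockout, ChREBP being a transcription factor that responds to glucose and is made from Mlxipl. Which part of the gene was removed, whether all tissues lacked it, littermate status and age are not in the labels. The single comparison is knockout against wild type, in a study of ChREBP and Wnt signalling in colorectal tumour formation.

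Short-chain fatty acids, chiefly acetate, propionate and butyrate, are made by gut bacteria from fibre, and butyrate is a main fuel of colon epithelial cells. Carriers in the apical and basolateral membranes bring them into the cell, where synthetases join them to coenzyme A so that they can be oxidised or built into lipid. The same molecules act as signals through G protein-coupled receptors on epithelial, enteroendocrine and immune cells, and butyrate inside the cell inhibits histone deacetylases.

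Mlxipl, the targeted gene, read 5.84, 7.49 and 7.27 FPKM in wild-type replicates 1 to 3 and 3.4, 5.66 and 5.04 FPKM in knockout replicates 1 to 3. It was lower in the knockout libraries, with no overlap, but was still present and did not pass the test over all genes (log2 fold change -0.48, SE 0.18, limma adjusted p = 0.9995). The values therefore do not show how far ChREBP was lost. The labels give all 6 mice as female, whereas the Y-linked gene Ddx3y lay between 9.51 and 12.11 FPKM and the X-inactivation RNA Xist between 0.02 and 0.04 FPKM in the 6 libraries. The data go against that label in both groups alike. The libraries were of like depth, with an estimate of 17700000 to 18425000 reads each that rests on how the FPKM of short genes is stepped. The epithelial marker Epcam lay between 684.86 and 812.18 FPKM and the colonocyte marker Krt20 between 236.53 and 488.76 FPKM, so the markers of colon epithelium were present in each library. Summed smooth muscle markers lay between 2635 and 4292 FPKM, and 5 of 7 markers of squamous epithelium were under 1 FPKM throughout. These are bulk samples, in which fewer cells of a type and less RNA per cell cannot be told apart.

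ChREBP binds DNA at paired E-box sequences, so the bases just before the starts of these genes are shown for the carriers and for Ffar2, the one receptor that passed the filter. The stretches below are the 250 bases before the outermost annotated start, 5′ to 3′, from RefSeq on build GRCm38.p6, which is not the mm39 build that the submitters' processing notes name. Capitals mark the E-box CACGTG, which reads the same on both strands. The search was for this single motif and not for a paired site. The window of Slc16a1 is chr3:104638414-104638663 on the plus strand, that of Slc5a8 is chr10:88885742-88885991 on the plus strand, and that of Ffar2 is chr7:30823776-30824025 on the minus strand.
Slc16a1: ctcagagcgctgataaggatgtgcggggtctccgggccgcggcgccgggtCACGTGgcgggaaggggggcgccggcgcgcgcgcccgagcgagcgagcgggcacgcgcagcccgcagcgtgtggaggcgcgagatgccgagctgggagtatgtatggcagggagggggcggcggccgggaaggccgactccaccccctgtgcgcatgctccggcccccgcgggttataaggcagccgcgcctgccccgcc
Slc5a8: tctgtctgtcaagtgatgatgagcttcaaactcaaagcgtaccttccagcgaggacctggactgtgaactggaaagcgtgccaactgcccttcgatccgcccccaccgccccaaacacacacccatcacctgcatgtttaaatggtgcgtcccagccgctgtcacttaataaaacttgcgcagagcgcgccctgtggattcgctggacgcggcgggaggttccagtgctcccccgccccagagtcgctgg
Ffar2: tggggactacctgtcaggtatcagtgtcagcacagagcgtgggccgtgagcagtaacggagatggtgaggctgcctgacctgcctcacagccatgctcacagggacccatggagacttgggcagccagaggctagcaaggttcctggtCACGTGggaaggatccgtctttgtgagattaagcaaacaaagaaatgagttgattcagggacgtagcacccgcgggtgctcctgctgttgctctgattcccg
The Slc16a1 window held 1 E-box, whose first base lies at position -200 from the start, and the Ffar2 window held 1 at position -102. Ffar2 has 4 annotated starts, and 1 of their windows held the motif. The Slc5a8 window held 0. Sequences were matched for 6 of the 8 genes, and the windows of Acss1, Acss2 and Ffar3 also held 0. Of 32851 annotated promoter windows of this length, 6.02% held a CACGTG. A match describes the letters and does not show binding, and no match says nothing of ChREBP at these genes.

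The 8 genes spanned a wide range of levels, in a nearly fixed order. Bsg was highest, followed by Slc5a8, Slc16a1, Acss2, Acss1, Ffar2, Hcar2 and Ffar3. FPKM is scaled by transcript length, so levels can be set side by side between genes. The mean of Bsg over the 6 libraries was above that of 99.3% of all 19844 genes, those of Slc5a8 and Slc16a1 above 96.3% and 95.1%, and those of Acss2 and Acss1 above 92.1% and 83.1%. The receptors were low, with Ffar2 above 49.8% of genes, Hcar2 above 30.04% and Ffar3 above 24.2%. Each gene from Bsg to Ffar2 exceeded the next one in that order in 6 of 6 libraries. The closest pair was Slc5a8 over Slc16a1, with a ratio of FPKM between 1.04 and 1.33. Hcar2 exceeded Ffar3 in 5 of 6 libraries and equalled it in knockout replicate 2, so that pair was not separated beyond its spread.

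**Figure D1:**
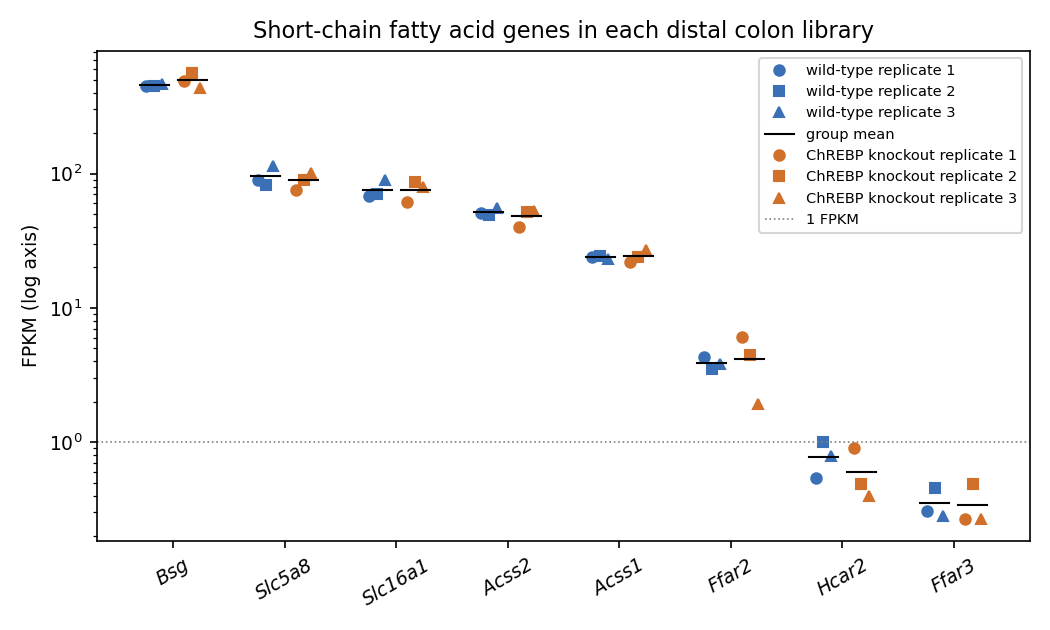
FPKM on a log axis for each of the 8 genes, with 1 point per library (blue wild-type, orange ChREBP knockout, symbol by replicate) and a black line at each group's mean. The dotted line is 1 FPKM. The wild-type and knockout points overlap for all 8 genes, and Ffar3 and Hcar2 lie at or under 1 FPKM in each library.

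No member differed between genotypes beyond the spread between mice. Among the 6 that entered the test, 0 reached a limma adjusted p under 0.05, and 0 had an unadjusted p under 0.05. Across the 13247 genes that passed the filter, 0.0151% were called, which is 2 genes, and 450 had an unadjusted p under 0.05. The groups overlapped for all 8 members, whereas 8.67% of the tested genes had groups that did not overlap. Log2 fold changes compare log2(FPKM + 1) in knockout with that in wild-type libraries, a positive value being higher in knockout. They were positive for 3 and negative for 3 of the tested members (1 and 5 when libraries were scaled to the same FPKM total, 2 and 4 with median-of-ratios scaling), with a median of -0.01 beside 0.01 for all genes tested. The 95% intervals of all 6 lay within 2-fold in either direction on that scale, as did those of 12846 of the 13247 genes. That scale understates changes of low genes such as Ffar2. In each sentence below a limma adjusted p is Benjamini-Hochberg adjusted over all genes tested.

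**Figure D2:**
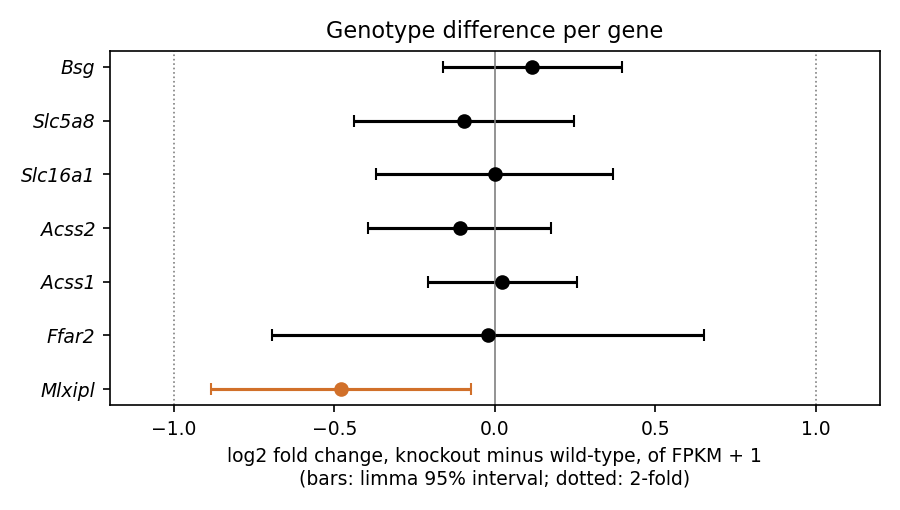
Log2 fold change of FPKM + 1, knockout minus wild type, for the 6 tested members and for Mlxipl (orange), with limma 95% intervals and dotted lines at 2-fold. The intervals of the 6 members include 0, and that of Ffar2 is the widest at -0.69 to 0.65.

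Slc5a8 (NCBI gene 216225, chromosome 10) encodes SMCT1, the sodium-coupled carrier that takes butyrate up across the apical membrane of colonocytes. It read 90.09, 82.78 and 113.12 FPKM in wild-type replicates 1 to 3 and 76.08, 90.14 and 100.45 FPKM in knockout replicates 1 to 3. Wild-type replicate 3 was highest and knockout replicate 1 lowest. Wild-type replicate 1 and knockout replicate 2 were nearly equal. The means were 95.3 ± 15.8 (SD, n = 3) and 88.9 ± 12.2 FPKM, a log2 fold change of -0.10 (SE 0.15, limma adjusted p = 0.9995). The interval of -0.44 to 0.25 corresponds to between 0.738 and 1.19 times the wild-type level. The sign turned, to 0.0099 without knockout replicate 1 and to 0.0321 without wild-type replicate 3.

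Slc16a1 (NCBI gene 20501, chromosome 3) encodes MCT1, a proton-coupled carrier of lactate, butyrate and ketone bodies. It read 67.78, 70.02 and 89.12 FPKM in wild type and 61.01, 86.96 and 79.74 FPKM in knockout. As for Slc5a8, the highest library was wild-type replicate 3 and the lowest was knockout replicate 1. The group means were 75.6 ± 11.7 and 75.9 ± 13.4 FPKM. The log2 fold change was 0.00 (SE 0.16, limma adjusted p = 0.9999), with an interval of -0.37 to 0.37 that allows between 0.774 and 1.29 times the wild-type level. Its sign turned with the scaling of libraries, being -0.0259 at the same FPKM total, and its value lay between -0.10 and 0.15 with a library left out.

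Bsg (NCBI gene 12215, chromosome 10) encodes basigin, the membrane glycoprotein that escorts MCT1 and MCT4 to the cell surface. It read 449.05, 445.32 and 466.75 FPKM in wild type and 487.95, 560.4 and 436.1 FPKM in knockout. The wild-type values lay close together, and the knockout libraries included both the highest (replicate 2) and the lowest (replicate 3) of the 6. The means were 454 ± 11.4 and 495 ± 62.4 FPKM, a log2 fold change of 0.12 (SE 0.12, limma adjusted p = 0.9995), which was 0.02 without knockout replicate 2. Bsg transcript exceeded that of Slc16a1 by between 5.24 and 7.998 times in each library. The mean ratio was 6.07 ± 0.737 in wild type and 6.64 ± 1.28 in knockout (exact permutation p = 0.5, two-sided, n = 3 per group, where 0.1 is the smallest p possible).

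Acss2 (NCBI gene 60525, chromosome 2) encodes the acetyl-CoA synthetase of the cytosol and nucleus, which makes acetyl-CoA from acetate for lipid synthesis and histone acetylation. It read 51.29, 48.82 and 55.11 FPKM in wild type and 40.15, 51.76 and 52.6 FPKM in knockout. Knockout replicate 1 was again lowest and wild-type replicate 3 again highest. The means were 51.7 ± 3.17 and 48.2 ± 6.96 FPKM, a log2 fold change of -0.11 (SE 0.12, limma adjusted p = 0.9995) with an interval of -0.39 to 0.17. Without knockout replicate 1 the difference was 0.0137.

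Acss1 (NCBI gene 68738, chromosome 2) encodes the acetyl-CoA synthetase of mitochondria, which feeds acetate into oxidation. It was the steadiest of the 8, with a coefficient of variation of 6.87% over the 6 libraries. It read 24.02, 24.41 and 22.93 FPKM in wild type and 22.12, 23.75 and 26.95 FPKM in knockout, with the knockout libraries holding both extremes. The log2 fold change was 0.02 (SE 0.10, limma adjusted p = 0.9995), and its interval of -0.21 to 0.26 allows between 0.865 and 1.19 times the wild-type level. The ratio of Acss2 to Acss1 transcript was 2.18 ± 0.205 in wild type and 1.98 ± 0.184 in knockout (exact permutation p = 0.3, two-sided, n = 3 per group).

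Slc5a8, Slc16a1 and Acss2 shared their extremes over the libraries, being lowest in knockout replicate 1 and highest in wild-type replicate 3. In knockout replicate 1 the levels of Slc5a8, Slc16a1 and Acss2 were 82.6%, 80.5% and 80.4% of each gene's mean over the 6 libraries. In wild-type replicate 3 they were 123%, 118% and 110%. Between the extremes they were less alike, as in knockout replicate 2, at 97.9%, 115% and 104%. As a measure of likeness, each gene's log2(FPKM + 1) was centred on its own mean, and the root mean square difference between a pair of genes was taken over the 6 libraries. It was 0.09 for Slc5a8 and Acss2, 0.11 for Slc16a1 and Acss2 and 0.11 for Slc5a8 and Slc16a1, against 0.24 for Slc5a8 and Bsg. Small values were not limited to these 3 genes, since Bsg and Ffar3 differed by 0.11 and Acss1 and Acss2 by 0.13. The measure is not scaled by spread, so a pair of genes that vary little scores low whatever their course. The SD of log2(FPKM + 1) over the 6 libraries was 0.13 for Bsg, 0.11 for Ffar3 and 0.09 for Acss1. It was 0.16 for Acss2, 0.20 for Slc5a8 and 0.21 for Slc16a1. Genes read in the same library share its depth, tissue makeup and preparation, so a small difference is a description alone. Knockout replicate 1 also stood apart in Slc16a3, the gene of the lactate exporter MCT4, at 14.81 FPKM against 4.88 to 6.87 FPKM elsewhere. Its macrophage marker sum was the lowest of the 6, at 317 FPKM, but near the 331 FPKM of knockout replicate 3. Of the 10 macrophage markers 5 were lowest in knockout replicate 1, whereas Cd14, at 33.7 FPKM, was exceeded in knockout replicate 2 alone. The epithelial marker sum, mostly from Krt8 and Krt19, was highest in knockout replicate 1, at 6013 FPKM. Of its 8 markers 4 were highest in knockout replicate 1. The colonocyte marker sum of 2574 FPKM in that library lay within the wild-type range of 2543 to 3297 FPKM, but of the 9 matched colonocyte markers 4 were lowest there and 2 were highest. Car4 read 512.14 FPKM against 715.24 to 965.09 FPKM elsewhere, Aqp8 156.17 against 189.56 to 330.72, Slc6a14 118.92 against 147.71 to 197.87 and Slc37a2 15.67 against 36.72 to 79.65. Krt20 and Emp1 were highest there, at 488.76 and 171.85 FPKM. The part of tissue makeup in these values was not tested.

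**Figure D3:**
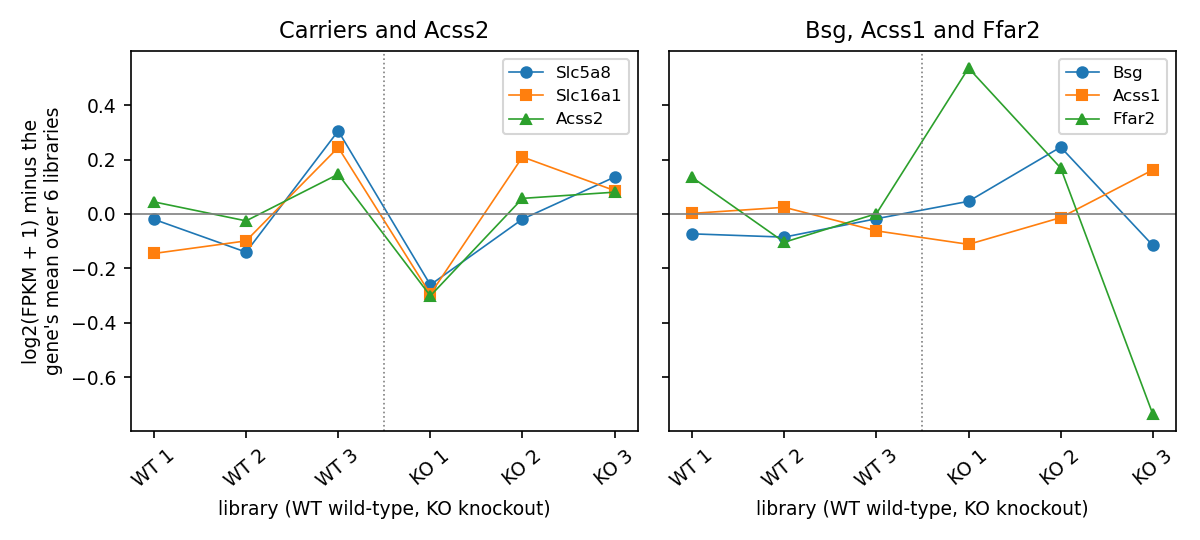
log2(FPKM + 1) of 6 members in each library, minus the gene's own mean over the 6 libraries, with wild-type libraries left of the dotted line and knockout libraries right of it. Slc5a8, Slc16a1 and Acss2 (left panel) are lowest in knockout replicate 1 and highest in wild-type replicate 3, and Ffar2 (right panel) spans the widest range, lowest in knockout replicate 3.

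Genes with the nearest pattern were searched among 9237 tested genes with a mean of at least 5 FPKM, for the 3 tested members with the largest spread between libraries. For Slc16a1 these were Inpp5k, an inositol phosphatase gene (root mean square difference 0.02 over 6 libraries), the centrosomal gene Kiz (0.03) and 2610507I01Rik (0.04). For Slc5a8 they were Rmnd5a (0.04), Crot, the peroxisomal carnitine octanoyltransferase gene (0.05), and Aktip (0.05). For Ffar2 they were Ifi27l2b (0.11), Slc13a2, a sodium-coupled carrier of citrate and succinate (0.12), and Reg4, a lectin gene of colon secretory cells (0.12). The genes were picked for their likeness, so these values are a description.

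Ffar2 (NCBI gene 233079, chromosome 7) encodes GPR43, a receptor for acetate and propionate found on enteroendocrine cells and neutrophils. It read 4.32, 3.51 and 3.85 FPKM in wild type and 6.03, 4.45 and 1.91 FPKM in knockout. The wild-type values lay between the knockout extremes, and knockout replicates 1 and 3 were 3.16 times apart. The group means were 3.89 ± 0.407 and 4.13 ± 2.08 FPKM, the second being slightly higher. The log2 fold change, which compares means of log values, had the opposite sign at -0.02 (SE 0.29, limma adjusted p = 0.9995), and neither gives a direction. The interval of -0.69 to 0.65 is the widest among the members. Without knockout replicate 3 the difference was 0.34, and without knockout replicate 1 it was -0.29. The estimated reads behind Ffar2 numbered between 65 and 209 per library.

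The libraries at the extremes of Ffar2 also stood apart in some, not all, markers of cells that carry the receptor. In knockout replicate 3, where Ffar2 was at 47.6% of its mean over the 6 libraries, the L-cell hormone genes Gcg, Pyy and Insl5 were at 62.1%, 60.5% and 32.9% of theirs. The summed level of all 8 enteroendocrine markers was 281 FPKM there, against 467 and 567 FPKM in the other two knockout libraries and 451 to 525 FPKM in wild type, a sum carried mostly by Pyy, Insl5 and Gcg. Of the 8 markers 6 were lowest in that library. Chga, at 32.56 FPKM, was lower in knockout replicate 1, and Scgn, at 5.15 FPKM, was exceeded in wild-type replicate 3 alone. Reg4 is not one of these 8 markers and was picked above for its likeness to Ffar2, so its course adds no separate evidence. It was at 297.52 FPKM in knockout replicate 3 and between 480.68 and 577.88 FPKM elsewhere. Knockout replicate 3 also had the highest smooth muscle marker sum, at 4292 FPKM. Of the 9 matched colonocyte markers 3 were lowest there, among them Krt20 at 236.53 FPKM, and 1 was highest, Car1 at 1039.01 FPKM. The colonocyte marker sum in knockout replicate 3 was 3007 FPKM, within the wild-type range of 2543 to 3297 FPKM. In knockout replicate 1, where Ffar2 was highest, the neutrophil genes S100a8 and S100a9 read 6.04 and 6.55 FPKM, against 0.77 to 1.10 and 0.88 to 1.99 FPKM in the other five libraries. Of 10 neutrophil markers 9 were matched, and 5 were highest in that library, among them Retnlg, Mmp8 and Trem1, which stayed under 1 FPKM in each library. The other four were highest elsewhere, Csf3r at 2.58 FPKM in knockout replicate 2, Cxcr2 at 3.43 in wild-type replicate 2, Il1b at 3.32 in wild-type replicate 3 and Ly6g at 232.83 in wild-type replicate 1. The neutrophil sum came mostly from Ly6g, which read 182.61 FPKM in knockout replicate 1, so it says little of the other markers. The sum was 204 FPKM in knockout replicate 1, below the 240 FPKM of wild-type replicate 1 and the 227 FPKM of knockout replicate 2. The part of these cells in the spread of Ffar2 was not tested.

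**Figure D4:**
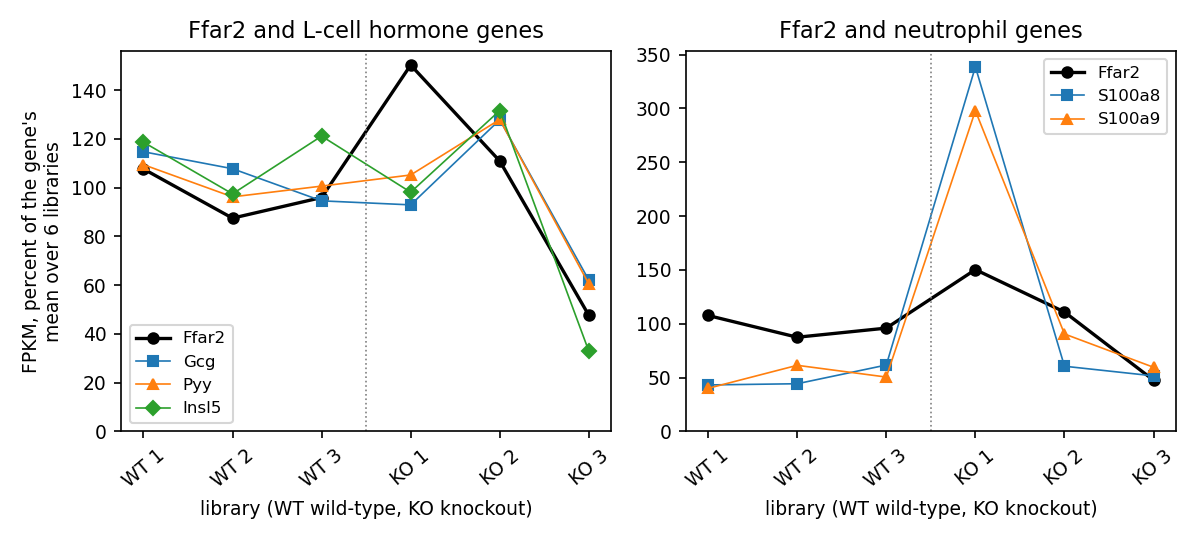
FPKM of Ffar2 (black), of the L-cell hormone genes Gcg, Pyy and Insl5 (left) and of the neutrophil genes S100a8 and S100a9 (right) in each library, as a percent of the gene's own mean over the 6 libraries. Ffar2, Gcg, Pyy and Insl5 are all lowest in knockout replicate 3, and S100a8 and S100a9 are highest in knockout replicate 1, as Ffar2 is. The marker genes drawn were chosen after their values were seen, and other markers of the same cells differ in course.

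Ffar3 (NCBI gene 233080, chromosome 7) encodes GPR41, a receptor for propionate and butyrate known from enteric neurons and enteroendocrine cells. It read 0.31, 0.46 and 0.28 FPKM in wild type and 0.27, 0.49 and 0.27 FPKM in knockout, so that the groups covered the same range. No difference between genotypes was seen (exact permutation p = 0.8, two-sided, n = 3 per group, smallest possible 0.1). These values rest on an estimated 8 to 14 reads per library, so they do not show that there is none. The 8 neuron and glia markers summed to between 27.1 and 34.1 FPKM. Ffar2 transcript was between 7.07 and 22.3 times that of Ffar3.

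Hcar2 (NCBI gene 80885, chromosome 5, as Mlxipl is) encodes GPR109A, a receptor for butyrate, beta-hydroxybutyrate and niacin found on colonocytes, macrophages and adipocytes. It read 0.54, 1.0 and 0.79 FPKM in wild type and 0.9, 0.49 and 0.4 FPKM in knockout. The knockout mean of 0.597 ± 0.267 FPKM was 76.8% of the wild-type mean of 0.777 ± 0.230 FPKM, but knockout replicate 1 lay above wild-type replicates 1 and 3. The difference was within the spread between mice (exact permutation p = 0.4, two-sided, n = 3 per group). An estimated 14 to 34 reads per library lie behind these values. The 5 matched adipocyte markers summed to 28.0 to 37.6 FPKM in wild type and 28.97 to 39.1 FPKM in knockout, mostly from Fabp4 at 25.03 to 31.93 FPKM, while Adipoq and Plin1 were under 1 FPKM in each library. The summed macrophage markers overlapped between groups, at 356 to 500 FPKM in wild type and 317 to 540 FPKM in knockout. No stretch of 50 bases was shared between the annotated transcripts of any 2 of the 8 genes, including the paired receptor genes Ffar2 and Ffar3.

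Other genes of the pathway, taken from 5 lists, were not called either. Of 19 other carriers, exchangers and chaperones 15 were tested and 0 called, 2 having an unadjusted p under 0.05 in limma, with 5 positive and 10 negative differences (3 and 12 at the same FPKM total) and a median of -0.17. That median was -0.04 without knockout replicate 3 and -0.24 without knockout replicate 2. Slc16a5, which encodes MCT6, a carrier of drugs such as bumetanide, read 24.77, 19.34 and 16.24 FPKM in wild type and 13.61, 12.33 and 10.51 FPKM in knockout. Its groups did not overlap, but the log2 fold change of -0.67 (SE 0.16) did not pass the test (limma adjusted p = 0.9995). Slc16a13, of the same family, also had groups that did not overlap, at 4.92 ± 0.374 and 3.53 ± 0.529 FPKM (limma adjusted p = 0.9995). These 2 of 15 stand beside the 8.67% of all tested genes. Slc16a3 averaged 5.74 ± 0.963 FPKM in wild-type and 9.41 ± 4.68 in knockout libraries, of which replicates 2 and 3 read 6.56 and 6.87. The creatine carrier Slc16a12 averaged 3.59 ± 0.741 and 2.64 ± 0.550 FPKM, with overlap.

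Of the other acyl-CoA synthetases and acetyl-CoA handling genes, 13 of 14 were matched, 8 tested and 0 called, 0 having an unadjusted p under 0.05 in limma, with 4 differences in each direction and a median of -0.04. Acsm3, a medium-chain synthetase gene that also accepts butyrate, was nearly as abundant as Slc5a8, with 96.3 ± 5.12 FPKM in wild-type and 83.7 ± 12.5 in knockout libraries, whereas Acss3, the third member of the Acss family, stayed between 0.07 and 0.26 FPKM. Sirt1, a deacetylase known to activate cytosolic acetyl-CoA synthetase, was at 7.003 ± 0.0971 and 8.14 ± 0.917 FPKM. Crat, which moves acetyl groups to carnitine, was at 12.5 ± 0.568 and 11.2 ± 0.751 FPKM, and Acsf2, a synthetase gene, at 45.9 ± 1.62 and 42.5 ± 0.574. The groups of Sirt1, Crat and Acsf2, 3 of the 8 tested beside 8.67% of all tested genes, did not overlap, with small differences of 0.19, -0.14 and -0.11 on the log2 scale.

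All 18 genes of butyrate and propionate oxidation and of ketone bodies were tested, 0 were called and 0 had an unadjusted p under 0.05 in limma. Differences were negative for 15 and positive for 3, with a median of -0.06. The split was 16 and 2 at the same FPKM total, with median-of-ratios scaling or without wild-type replicate 2. But it was 10 and 8 without knockout replicate 1, and 11 and 7 without wild-type replicate 3 or with libraries weighted by quality. Over all genes tested 6261 were negative and 6986 positive. Pcca, a subunit of the propionyl-CoA carboxylase, averaged 12.8 ± 0.993 FPKM in wild-type and 10.8 ± 0.843 in knockout libraries without overlap, and its partner Pccb at 61.5 ± 3.88 and 56.3 ± 5.13. The electron transfer gene Etfa was at 54.4 ± 4.23 and 50.7 ± 1.80 FPKM, and Bdh1, which makes beta-hydroxybutyrate, at 43.8 ± 3.59 and 41.2 ± 2.59. Acads, the first enzyme of butyrate oxidation, averaged 42.5 ± 3.15 and 42.7 ± 4.02 FPKM, and all 18 intervals lay within 2-fold.

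Of 18 entries for other receptors and signal transducers 17 were matched, 14 tested and 0 called. The unmatched entry, Niacr1, is an older symbol of Hcar2. Of those tested, 1 had an unadjusted p under 0.05 in limma. There were 7 differences in each direction, with a median of 0.02. Gna11, a G protein alpha subunit of the Gq class, read 84.6, 78.2 and 79.33 FPKM in wild type and 67.5, 64.93 and 66.71 FPKM in knockout. The groups did not overlap, and the log2 fold change of -0.28 (SE 0.08) did not pass the test (limma adjusted p = 0.9995). Olfr78, an olfactory-type receptor for acetate and propionate, was at 5.09 ± 0.519 and 4.15 ± 0.847 FPKM, above Ffar2 on average in wild type. Olfr558, a related receptor, was at 0.957 ± 0.381 and 1.28 ± 0.171 FPKM, and Gnao1, a neuronal G protein subunit, at 6.30 ± 0.248 and 7.52 ± 1.18. Among the 4 histone deacetylases 0 were called and 0 had an unadjusted p under 0.05 in limma, and their log2 differences lay between -0.09 for Hdac1 and 0.10 for Hdac8, with 0.02 for Hdac2 and 0.07 for Hdac3.

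**Figure D5:**
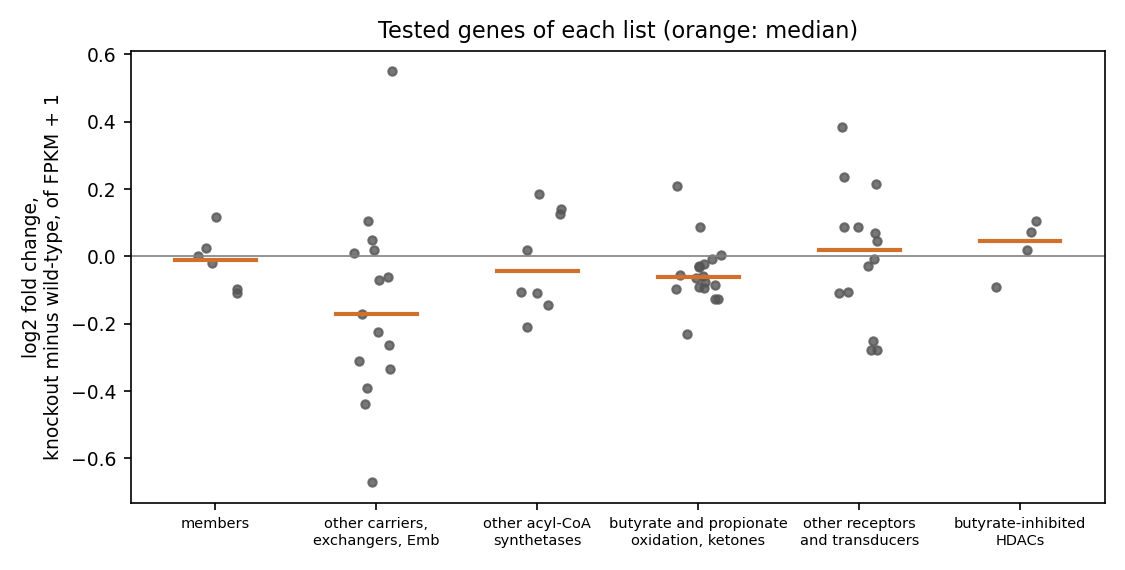
Log2 fold change of FPKM + 1, knockout minus wild type, for each tested gene (grey points) of the members and of the 5 other lists, with each list's median in orange. The point lowest on the plot is Slc16a5 at -0.67 and the highest is Slc16a3 at 0.55, and 0 of the genes shown were called.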

How the data were processed

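RNA was sequenced from 6 distal colon samples, 3 wild-type and 3 knockout, grouped by the genotype label. The authors deposited FPKM values per gene and library. HISAT2, RSEM and the mm39 build are named in the submitters' processing notes. Neither strand nor software versions were stated by any source used here.

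Kept for testing were the 13247 genes with 1 FPKM or more in 3 or more libraries. Their log2(FPKM + 1) went into limma (version 3.58.1, R 4.3.3), with a mean-variance trend and genotype alone in the model. Tests were two-sided, p-values were adjusted by the Benjamini-Hochberg method, and genes under 0.05 were called. The fit was tested on simulated data. No count model was used, since FPKM are not counts. Depth was estimated from 123 to 145 values per library of genes up to 150 bases long, of which 83.8% to 89.4% came within 0.05 of whole reads. Reads per member follow from that depth and GENCODE M21 transcript lengths.

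Members and lists were chosen with earlier results of these data known. The text names all members, called list genes and the 4 tested genes of smallest p per list, the genes nearest in pattern, marker sums with markers under 1 FPKM, Mlxipl, Ddx3y and Xist. Acads, Acss3 and the single markers given with values were chosen after their values were seen. Alternatives covered pseudocount, filter, scaling, variance model, replicate number and each library left out. Tables used Python 3.11.15, pandas 2.3.3 and scipy 1.17.1, and figures matplotlib 3.10.9.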

Additional observations from a re-analysis of the deposited data

How the results depend on the processing

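No member was called under any of the alternatives that tested it, and neither was any gene of the other lists. Ffar3 and Hcar2 entered the test only without a filter, and Ffar2 did not enter it with a mean of at least 5 FPKM. The count over the whole table, 2 genes, was 1 with a pseudocount of 5, 0 with a mean of at least 5 FPKM and 0 with the replicate number as a block. It was 3 with a pseudocount of 0.1, without a filter, without the trend, with a robust prior and with libraries weighted by quality, and 2 under the 3 other scalings. It was between 0 and 1 with a library left out. The sign of small differences turned. For Slc16a1 the log2 fold change was -0.0259 after scaling to the same FPKM total and -0.00942 with median-of-ratios scaling, for Ffar2 it was 0.0124 with a pseudocount of 5, for Acss1 it was -0.0012 after scaling to the same total, and for Slc5a8 it was 0.0267 with libraries weighted by quality. With a library left out the range was -0.19 to 0.0321 for Slc5a8, -0.10 to 0.15 for Slc16a1, -0.29 to 0.34 for Ffar2, -0.0508 to 0.0860 for Acss1, -0.18 to 0.0137 for Acss2 and 0.02 to 0.20 for Bsg, whose sign held in the 17 alternatives run. Same-numbered libraries deviated with correlations of 0.270, -0.0963 and 0.0629 over genes, and not every library correlated best with its own number. Each library's deviation was taken from the mean of its group of 3, which ties the values to one another. The check therefore cannot decide whether same-numbered samples were paired. In the labels they share only a number. Scaling moved the median of all genes by under 0.1 on the log2 scale. Depth limits Ffar3 and Hcar2, with at most 34 estimated reads per library.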
